A study of Mus musculus with 9 samples.

Results

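Cyp2e1 encodes a cytochrome P450, and Fmo1, Fmo2, Fmo4 and Fmo5 encode flavin-containing monooxygenases, the enzyme families that oxidize thioacetamide (TAA), the hepatotoxin used in the study to produce liver fibrosis in mice. They were selected by gene symbol, and all 5 were found among the 21873 genes listed in the liver mRNA table and were among the 14094 genes that passed the filter on low values. Liver mRNA of 9 male C57BL/6 mice was sequenced, with 3 mice in each group, all 8 weeks old at the start. The TAA group received 200 mg/kg intraperitoneally every 3 days for 8 weeks, and the control group received saline. Both groups were killed 72 h after the final injection. The recovery group received the same course of TAA and was kept for another 8 weeks without injections, so these mice were 8 weeks older at collection. Controls of that age are not analysed here, and age and past injury cannot be told apart in the comparison of the recovery group with the control group.

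TAA is not toxic by itself. CYP2E1, a cytochrome P450 of the hepatocytes around the central vein, and flavin-containing monooxygenases (FMO) add oxygen to its sulphur in successive steps. This gives a reactive product that binds to liver proteins. Both kinds of enzyme sit in the membrane of the endoplasmic reticulum and use NADPH. CYP2E1 receives its electrons from the reductase encoded by Por, partly by way of cytochrome b5, whereas FMO enzymes carry their own flavin and take electrons from NADPH directly.

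Values are FPKM (fragments per kilobase of gene and M mapped fragments), which are given per length. Comparisons between genes rest on the length used for each gene. Whether it matches the mRNA forms expressed in these livers was not tested. They were divided by 1 scaling factor per library, set so that the typical gene had the same level in all libraries. Control libraries had factors of 0.827 to 0.878, TAA libraries of 1.29 to 1.38 and recovery libraries of 0.893 to 0.907, so that scaling moved the difference between TAA and control libraries by -0.64 on the log2 scale. Low FPKM values change in steps of 1 fragment, from which a depth of 26.8 to 40.4 M fragments per library was estimated. General hepatocyte markers summed to 40693 to 45475 scaled FPKM in control livers, 23405 to 30645 in TAA livers and 50868 to 53185 in recovery livers, with 9 of 10 listed markers found and none at 0. Stellate and fibroblast markers (10 of 10 found, none at 0 in any group) summed to 80.3 to 132, 354 to 471 and 112 to 153, respectively, and cholangiocyte markers (6 of 6, none at 0) to 15.7 to 21.0, 295 to 443 and 27.9 to 38.4. The hepatocyte and cholangiocyte sums mostly follow 1 gene each. Over the 9 libraries Alb averaged 27630 FPKM and the next hepatocyte marker 3020, and Spp1 averaged 156 and the next cholangiocyte marker 4.30. TAA mouse 3 held skeletal muscle markers at a summed level of 44.2, against at most 0.426 in the other libraries. The part of these shifts in the results on the enzymes was not tested.

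The promoter windows of Cyp2e1 and Fmo5 are shown because these genes had the highest levels of the 5 and moved in opposite directions in the TAA group. Each window runs from 250 bases before to 50 bases after a transcription start of RefSeq (build GRCm38.p6), 5′ to 3′ on the strand of the gene, and capitals mark matches to the motifs searched. Cyp2e1 lies on the plus strand of chromosome 7, and its window is chr7:140763569-140763868. Fmo5 lies on the plus strand of chromosome 3, and its window is chr3:97628769-97629068. The genes are listed from 140763739 (Cyp2e1) and 97628804 (Fmo5). Both transcription starts used here thus lie inside the listed genes, and so does most of the Fmo5 window.
Cyp2e1: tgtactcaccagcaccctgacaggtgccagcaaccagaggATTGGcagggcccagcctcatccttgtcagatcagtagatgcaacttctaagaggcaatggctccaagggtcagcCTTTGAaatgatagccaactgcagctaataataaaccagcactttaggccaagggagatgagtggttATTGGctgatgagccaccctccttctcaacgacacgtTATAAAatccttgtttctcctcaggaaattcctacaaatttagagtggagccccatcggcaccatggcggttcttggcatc
Fmo5: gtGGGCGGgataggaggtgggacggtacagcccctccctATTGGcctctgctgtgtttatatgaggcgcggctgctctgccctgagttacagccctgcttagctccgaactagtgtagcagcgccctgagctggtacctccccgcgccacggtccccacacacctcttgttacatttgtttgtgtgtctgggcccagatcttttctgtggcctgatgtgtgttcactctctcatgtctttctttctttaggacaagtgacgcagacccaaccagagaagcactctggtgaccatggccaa
The Cyp2e1 window held the TATA box letters TATAAA at position -31 from the start, the CCAAT box letters CCAAT on the reverse strand at -210 and -68 (read as ATTGG), and the TCF/LEF core letters CTTTGA at -135. The Fmo5 window held CCAAT on the reverse strand at -211 and the Sp1 GC box letters GGGCGG at -248, and no TATAAA. Among all 32851 windows of the same length, 8.32% held TATAAA (plus strand only), and on either strand 37.4% held CCAAT, 16.0% CTTTGA and 35.7% GGGCGG. The HNF1 half-site letters GTTAAT, found in 7.1% of all windows, were in neither. GC content was 49.7% with 4 CpG in the Cyp2e1 window and 56.0% with 10 CpG in the Fmo5 window, against a median of 52.7% and 7 CpG over all windows. Windows were given for 4 of the 5 genes, Fmo1 being the other. The window of Fmo4 held CCAAT at -239 and CTTTGA on the reverse strand at -110, and the windows of Fmo2 held no match. A match describes letters only and is no evidence of binding. Only exact letters were searched, so the lack of a match is no evidence against a site either.

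By the coordinates of the table (mm10), Cyp2e1 (ENSMUSG00000025479) spans chr7:140763739-140774987 and Fmo5 (ENSMUSG00000028088) spans chr3:97628804-97655282. Fmo4 (ENSMUSG00000026692, chr1:162793188-162813972), Fmo1 (ENSMUSG00000040181, chr1:162829561-162866610) and Fmo2 (ENSMUSG00000040170, chr1:162874317-162898726) are neighbours on the minus strand of chromosome 1. In the GENCODE M21 annotation no exon of another gene overlapped any of the 5 enzyme genes.

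The order of the levels was Cyp2e1, Fmo5, Fmo1, Fmo2 and Fmo4 in all groups, and no neighbours in this order overlapped within a group. Among the 21873 listed genes, Cyp2e1 ranked 8 by mean level in control mice, 66 in TAA mice and 13 in recovery mice. Fmo5 ranked 317, 91 and 221, respectively. Cyp2e1 was 24.6 times the level of Fmo5 in control mice, 1.38 times in TAA mice and 13.0 times in recovery mice.

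**Figure D1:**
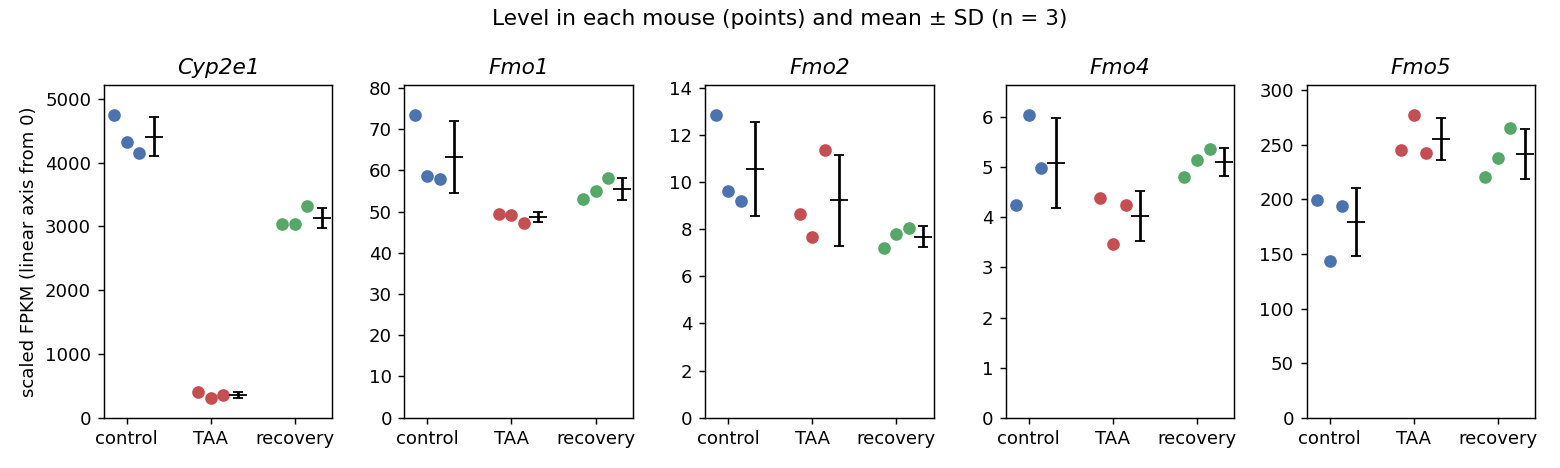
Scaled FPKM of Cyp2e1, Fmo1, Fmo2, Fmo4 and Fmo5 (y axes, linear and starting at 0, 1 scale per gene) in the control, TAA and recovery groups (x axes). Points are mice and the black bars are the mean ± SD (n = 3). Cyp2e1 lay between 309 and 398 in the TAA group, below all other libraries, and Fmo5 lay above all control libraries in both other groups.

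Cyp2e1 was down-regulated in TAA-fibrotic mice and rose again after TAA withdrawal. Its scaled FPKM were 4745, 4326 and 4157 in control mice, 398, 309 and 348 in TAA mice, and 3041, 3031 and 3317 in recovery mice. The TAA libraries were far below all others, and the recovery libraries lay between the other groups without overlap. The means were 4409 ± 303 (SD, n = 3), 352 ± 44.9 and 3130 ± 162. The log2 fold change in the TAA group was -3.65 (SE 0.14, limma adjusted p = 3.58e-06), and 0.355% of all tested genes had a change as low or lower. In liver tissue, fewer hepatocytes of the kind that express a gene and less mRNA per cell cannot be told apart. After withdrawal Cyp2e1 rose by 3.16 on the log2 scale (recovery versus TAA, SE 0.13, limma adjusted p = 5.22e-06). Against the control group its difference was -0.49, with a 95% interval of -0.84 to -0.15 and a limma adjusted p of 0.118. Of the log2 change in the TAA group, 13.5% ± 2.02 (SD, n = 3) was left in the recovery mice, and 31.5% was left on the linear scale.

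Fmo5 was the FMO gene with the highest level. Its enzyme catalyses oxidations of ketones of the Baeyer-Villiger type, and whether it acts on TAA was not tested. The scaled FPKM of Fmo5 were 200, 143 and 194 in control mice, 246, 277 and 242 in TAA mice, and 220, 238 and 266 in recovery mice. All TAA and all recovery libraries were above all control libraries, and the TAA and recovery groups overlapped. The means were 179 ± 31.1, 255 ± 19.2 and 241 ± 22.9 (SD, n = 3). In the TAA group it was up-regulated by 0.52 on the log2 scale (SE 0.14, limma adjusted p = 0.017), and without TAA mouse 2 this was 0.46 with an adjusted p of 0.0566. The recovery group differed from the TAA group by -0.08, with a 95% interval of -0.33 to 0.17 (limma adjusted p = 0.556). Against the control group the recovery group was at 0.44 with an interval of 0.09 to 0.79 and an adjusted p of 0.147 (limma). The share of the log2 change left was 84.4% ± 25.9 (SD, n = 3). This share depended on the scaling and was 44.6% in the FPKM as deposited.

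Fmo1, a broad-specificity FMO of mouse liver, had scaled FPKM of 73.4, 58.7 and 57.9 in control mice, 49.5, 49.2 and 47.2 in TAA mice, and 53.1, 55.1 and 58.2 in recovery mice. The TAA libraries were below those of the other groups, and the recovery and control groups overlapped. The log2 fold change in the TAA group was -0.37 (SE 0.11, limma adjusted p = 0.0217), and the call was lost without TAA mouse 1 (adjusted p = 0.0503) or TAA mouse 3 (adjusted p = 0.062). This direction came with the scaling. In the FPKM as deposited the order was reversed, with 63.7, 65.0 and 65.0 in the TAA group above 60.6, 50.2 and 50.8 in the control group, a log2 fold change of 0.27 (limma adjusted p = 0.0342).

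Fmo2, best known as an FMO of the lung, was at 12.8, 9.64 and 9.18 scaled FPKM in control mice, 8.64, 7.68 and 11.4 in TAA mice, and 7.19, 7.80 and 8.07 in recovery mice. TAA mouse 3, the library with skeletal muscle markers, had the highest Fmo2 of its group, and the TAA group overlapped with both other groups. The difference of the TAA group from the control group was -0.19 (interval -0.62 to 0.23, limma adjusted p = 0.398), and leaving out 1 mouse at a time moved it from -0.35 without TAA mouse 3 to -0.05 without control mouse 1, being -0.07 without TAA mouse 2. The recovery libraries were all below the control libraries, with a log2 difference of -0.44 (interval -0.78 to -0.10) that did not pass the test (limma adjusted p = 0.139).

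Fmo4 had the lowest level of the 5. Its scaled FPKM were 4.24, 6.04 and 4.98 in control mice, 4.39, 3.46 and 4.24 in TAA mice, and 4.80, 5.14 and 5.37 in recovery mice. The TAA group overlapped with the control group and lay below the recovery group. No comparison passed the test, with log2 differences of -0.32 (interval -0.70 to 0.05, limma adjusted p = 0.128) in the TAA group, 0.34 (0.05 to 0.63, adjusted p = 0.0548) in recovery versus TAA, and 0.02 (-0.33 to 0.36, adjusted p = 0.961) against the control group.

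Over the 5 genes, 3 passed an adjusted p of 0.05 for TAA versus control, 1 higher and 2 lower, where 54.5% of all tested genes passed, 28.2% higher and 26.3% lower. Only Cyp2e1 was a DEG by the further criterion of a fold change of at least 2, which 25.0% of all tested genes met, 8.02% being lower. For recovery versus TAA, Cyp2e1 alone passed, where 50.5% of all tested genes did and 24.5% were higher, and it was again a DEG, as were 21.4% of all tested genes, 7.12% being higher. For recovery versus control none of the 5 passed (limma), where 2.70% of all tested genes did and 0.993% were DEGs, although Cyp2e1, Fmo2 and Fmo5 had unadjusted p values of 0.0127, 0.0184 and 0.0217. With libraries scaled to hepatocyte markers, Cyp2e1, Fmo1 and Fmo2 passed there, all lower, as did 13.0% of all tested genes. The groups did not overlap for 3 of the 5 genes in TAA versus control (63.6% of all tested genes), for 3 in recovery versus TAA (60.3%) and for 3 in recovery versus control (30.2%). These shares are near or, in the last comparison, above those over all tested genes, and 5 genes are too few to read more from them.

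How the FMO genes moved depended on how the libraries were set against each other. Cyp2e1 was lower in the TAA group under all 6 scalings compared (median of ratios over all genes or over genes of at least 10 FPKM, FPKM as deposited, TPM, quantile normalization and hepatocyte markers). Its log2 fold change was -3.65 to -2.23 and that of Fmo5 0.52 to 1.63, both with an adjusted p under 0.05 each time (limma). Fmo1 ranged from -0.37 to 0.60, Fmo2 from -0.19 to 0.77 and Fmo4 from -0.38 to 0.63, each with both signs. The highest value of each of these 3 genes came from scaling to the hepatocyte markers. For recovery versus TAA, Cyp2e1 was higher by 1.86 to 3.16 under the 6 scalings. Fmo5 was at -1.25 to -0.08 and passed the test under 5 of them, Fmo2 was at -1.40 to -0.24 and passed under 4, and Fmo1 and Fmo4 took both signs.

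**Figure D2:**
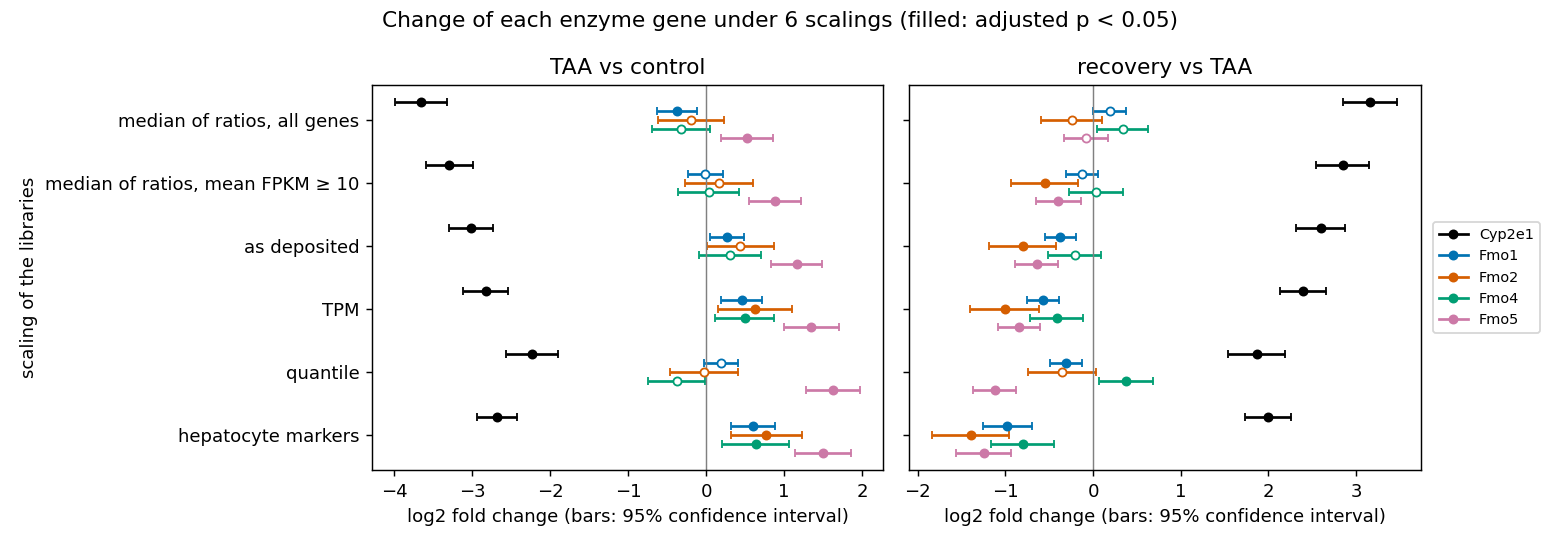
Log2 fold change (x axes, with 95% confidence intervals) of the 5 enzyme genes under 6 ways of scaling the libraries (y axis), for TAA versus control (left) and recovery versus TAA (right). Filled points have an adjusted p under 0.05. In the left panel Cyp2e1 stays below -2.23 and Fmo5 above 0.52, while Fmo1, Fmo2 and Fmo4 lie on both sides of 0.

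Ratios between genes within a library are the same under any factor that applies to the whole library, as in 5 of the 6 scalings, but quantile normalization changes them. The ratios given here are of the deposited FPKM. The ratio of Cyp2e1 to the summed FPKM of the 4 FMO genes was 16.4, 19.9 and 15.6 in control mice, 1.29, 0.915 and 1.14 in TAA mice, and 10.7, 9.90 and 9.84 in recovery mice. In the TAA group the mRNA of Cyp2e1 and that of the FMO genes were thus at about the same level per length, and the 3 groups did not overlap. Which of the FMO enzymes act on TAA was not tested, so the ratio is one of mRNA levels and not of TAA oxidation. Cyp2e1 made up 94.5% ± 0.65 (SD, n = 3) of the FPKM of the 5 genes in control mice, 52.5% ± 4.36 in TAA mice and 91.0% ± 0.36 in recovery mice. The summed scaled FPKM of the FMO genes were 258 ± 37.0, 317 ± 17.9 and 309 ± 26.1, with no overlap between the control and TAA groups.

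Within the FMO genes, Fmo5 gained against Fmo1. Its ratio to Fmo1 was 2.72, 2.44 and 3.36 in control mice, 4.96, 5.63 and 5.13 in TAA mice, and 4.14, 4.32 and 4.56 in recovery mice. The groups did not overlap, and the recovery group lay nearer to the TAA group. An exact permutation test over the 1680 ways of forming the 3 groups gave p = 0.00357, the smallest it can give (adjusted p = 0.00785 over the 11 ratios compared). The log2 ratio of Fmo1 to Fmo5 differed from that of control mice by -0.89 in TAA mice and by -0.62 in recovery mice. With 3 against 3 mice, the smallest p of an exact permutation test between a pair of groups is 0.1, which both of these differences reached.

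Ratios among the 3 neighbouring genes of chromosome 1 were compared in the same way as their ratios to Fmo5. Among the neighbours, exact permutation p values were 0.0571 for Fmo1 over Fmo2, 0.707 for Fmo1 over Fmo4 and 0.129 for Fmo2 over Fmo4 (adjusted p = 0.0698, 0.707 and 0.142). Against Fmo5 they were 0.00357 for Fmo1, 0.0393 for Fmo2 and 0.0107 for Fmo4 (adjusted p = 0.00785, 0.054 and 0.0196). Whether these sets of ratios differ from each other was not tested. Fmo5 took 69.2% ± 3.57 of the summed FMO FPKM in control mice, 80.4% ± 1.48 in TAA mice and 77.9% ± 0.79 in recovery mice (SD, n = 3). The share of Fmo1 was 24.7% ± 2.67, 15.4% ± 0.74 and 18.0% ± 0.68 in the same groups.

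**Figure D3:**
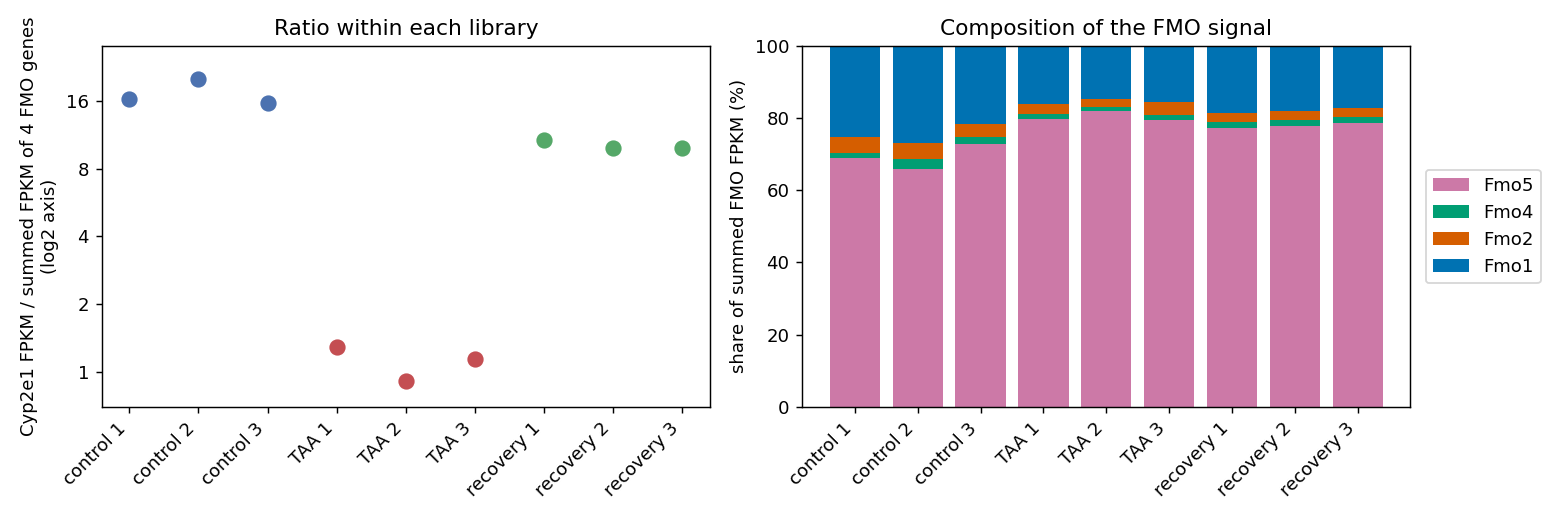
Left, FPKM of Cyp2e1 divided by the summed FPKM of Fmo1, Fmo2, Fmo4 and Fmo5 in each library (y axis, log2 scale). Right, share of each FMO gene in their summed FPKM (y axis, percent, stacked bars). The ratio lies between 0.915 and 1.29 in the TAA group and at 9.84 or above in the other groups, and the share of Fmo5 is largest in the TAA group.

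Fmo6, a neighbour of Fmo2 on chromosome 1, was above 0 only in TAA mouse 3, at 0.0193 scaled FPKM, and Fmo9 was listed at 0 in all libraries. Neither passed the filter on low values, and neither was tested.

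Of 6 electron partners of P450 enzymes, 1 was higher and 3 were lower in the TAA group (limma), beside 28.2% and 26.3% of all tested genes. Under the other 5 scalings more were higher than lower. There were 3 higher and 2 lower as deposited or with scaling over genes of at least 10 FPKM, and 3 and 1 as TPM. Quantile normalization and hepatocyte-marker scaling gave 4 and 0. Of all 14094 tested genes, 8764 were higher and 1198 lower as deposited, and 6381 and 1915 with scaling over genes of at least 10 FPKM. These counts were 10166 and 859 as TPM, 3359 and 3666 with quantile normalization, and 10782 and 644 with hepatocyte-marker scaling. Por, the P450 reductase, was at 269, 243 and 264 scaled FPKM in control mice, 132, 133 and 127 in TAA mice, and 166, 218 and 199 in recovery mice. The groups did not overlap. The change of Por in the TAA group was -0.98 (limma adjusted p = 7.77e-05), and -0.98 to -0.01 under the 6 scalings, of which 3 passed the test. Cyb5a, which encodes cytochrome b5, was at -1.12 (adjusted p = 0.000132) and Pgrmc1, a haem-binding partner of P450 enzymes, at -0.47 (adjusted p = 0.0359), but under other scalings they reached 0.16 and 1.02. Cyb5r1, a cytochrome b5 reductase, rose by 0.61 (adjusted p = 0.0113) and passed under all 6 scalings. Cyb5b, the b5 of the mitochondrial outer membrane, and the reductase Cyb5r3 were at 0.26 and 0.10 (adjusted p = 0.0994 and 0.397), the lowest of their values under the 6 scalings, and under the other 5 both passed as higher, reaching 1.24 and 1.08. For recovery versus TAA, Por, Cyb5a and Pgrmc1 rose by 0.56, 0.79 and 0.36, all with a sign that flipped under other scalings, whereas Cyb5b fell by 0.44 and Cyb5r1 by 0.95 with a called fall under all 6.

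Of 14 pericentral genes, which like Cyp2e1 are expressed around the central vein, 10 were lower and 2 higher in the TAA group. Over all tested genes, 26.3% were lower and 28.2% higher. The median log2 fold change of the pericentral genes was -0.88, against 0.02 over all tested genes. Under the 6 scalings the pericentral median was -0.88 to 0.09, with 6 to 10 genes lower and 2 to 5 higher. Among all 14094 tested genes, 644 to 3708 were lower and 3359 to 10782 higher under these scalings. Of 10 periportal genes 9 were lower and 0 higher, at a median of -1.12 that reached -0.01 under quantile normalization. Of 9 general hepatocyte markers 7 were lower and 0 higher, at a median of -0.85. Their median was -0.48 with scaling over genes of at least 10 FPKM, -0.21 as deposited, -0.02 as TPM and 0.12 with quantile normalization. Scaling to these markers gave 0.13, but it holds their average level equal in all libraries. Oat, an ornithine aminotransferase, fell by 6.17 on the log2 scale and Glul, the glutamine synthetase, fell by 3.37 (limma adjusted p = 3.58e-06 and 1.99e-06), and both passed the test in this direction under all 6. Rgn, which takes part in ascorbate synthesis, was at -0.76 (adjusted p = 0.00801) and Cyp2a5, a coumarin hydroxylase, at -0.27 (adjusted p = 0.216), and both changed sign under other scalings. In the recovery group, 11 of the 14 pericentral genes were higher and 1 lower than in the TAA group, at a median of 0.87. Also higher were 9 of the 10 periportal genes (median 1.1) and 8 of the 9 general hepatocyte markers (median 1.02). Of all tested genes, 24.5% were higher. Under the 6 scalings, 6 to 11 pericentral genes were higher and 1 to 6 lower. Among all 14094 tested genes, 431 to 3453 were higher and 3238 to 11969 lower. With hepatocyte-marker scaling the medians of the pericentral, periportal and general hepatocyte genes turned to -0.26, -0.07 and -0.14. The last is held near 0 by that scaling itself. With the scaling used here, Glul in the recovery group was at -0.14 against the control group (95% interval -0.37 to 0.09). Oat was at -1.44 (limma adjusted p = 0.027) and passed as lower under all 6 scalings.

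**Figure D4:**
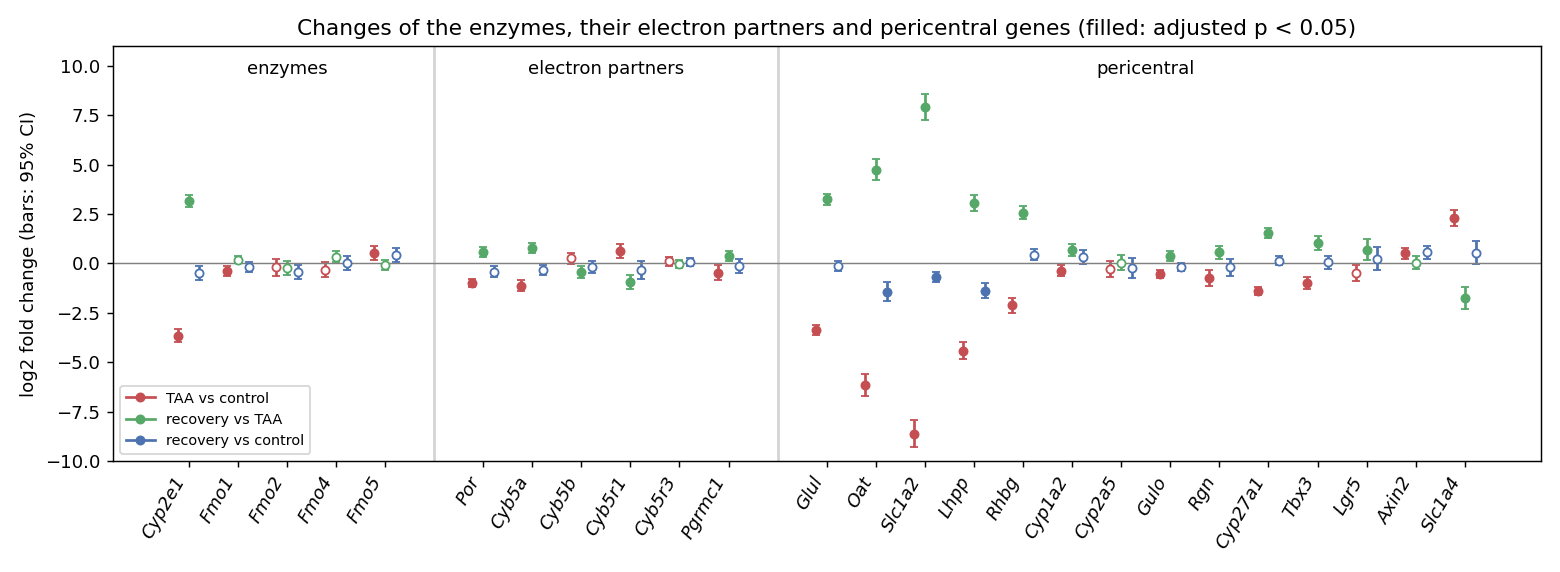
Log2 fold changes (y axis, with 95% confidence intervals) of the 5 enzyme genes, 6 electron partners and 14 pericentral genes (x axis) in the 3 comparisons, in colour. Filled points have an adjusted p under 0.05. For TAA versus control, Cyp2e1 sits at -3.65, near Glul at -3.37, and the FMO genes lie between -0.37 and 0.52.

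Among 14 transcription factors of liver genes, 10 were lower and 3 higher in the TAA group, where 26.3% and 28.2% of all tested genes were. The balance turned to 5 lower and 6 higher as TPM and to 3 lower and 7 higher with hepatocyte-marker scaling. Of all 14094 tested genes, 859 were lower and 10166 higher as TPM, and 644 and 10782 with hepatocyte-marker scaling. The median log2 fold change of the 14 factors was -0.62, and -0.62 to 0.36 under the 6 scalings. Cebpa and Ppara, regulators of hepatocyte metabolism, fell by 1.48 and 1.48 on the log2 scale (limma adjusted p = 7.31e-05 and 4.54e-05) and passed under all 6. Hnf4a, a master regulator of hepatocyte genes, was at -1.11 (adjusted p = 0.00015) and stayed below 0 in all 6, passing in 5. Cebpb was at -0.57 (adjusted p = 0.0278), with the opposite sign under other scalings. Of 5 genes of glutathione synthesis and epoxide hydrolysis, Gclc, the catalytic subunit of glutamate-cysteine ligase, rose by 1.11 (limma adjusted p = 0.0018) and passed under all 6. It alone passed with the scaling used here, whereas 4 or 5 of the 5 genes passed as higher under each of the other scalings. Under those, 3359 (quantile normalization) to 10782 (hepatocyte-marker scaling) of all 14094 tested genes were higher.

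The genes whose levels followed each enzyme most closely over the 9 libraries were taken by Pearson's r of the log2 values, as a description, since the libraries share their group and their scaling. For Cyp2e1 they were Hsd17b4, a peroxisomal enzyme of fatty acid oxidation (r = 0.999), Slco1a1, an organic anion transporter (0.998), Teddm2 (0.998), Slc27a2 (0.998) and Ppp6r2 (0.998). Slc27a2, a long-chain acyl-CoA synthetase, had mean scaled FPKM of 756, 126 and 634 in the control, TAA and recovery groups. For Fmo5 they were Zfp607a (0.966), Ube2n (0.952), Mrtfb (0.934), Hspbap1 (0.933) and Pvrig (0.931). Ube2n, a ubiquitin-conjugating enzyme, had means of 3.72, 7.63 and 6.26 in the 3 groups. The first for Fmo1 was Ncoa4 (0.970), for Fmo2 Poll (0.936) and for Fmo4 Chd4 (0.969).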

How the data were processed

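Per the labels and the methods of the study, the authors extracted liver RNA with TRIzol, made libraries (NEBNext Ultra kit), sequenced 150 bp paired-end reads, mapped them to mm10 with HISAT2 2.2.1, counted them with featureCounts 1.5.0-p3 and deposited FPKM values per gene, 1 column per mouse. Counts were not used here. Each library was divided by a median-of-ratios factor over the 14005 genes above 0 in all 9 libraries. limma 3.58.1 (R 4.3.3, eBayes with trend, 6 libraries a comparison) was run on log2(scaled FPKM + 0.1) wherever the mean FPKM reached 0.1, with Benjamini-Hochberg adjustment over all 14094. Fold changes are on this scale, which understates changes of low genes. Ratios were compared by two-sided exact permutation tests. Sums and shares over several enzymes are given as descriptions without a p value. The members and lists were chosen with earlier results of these data known, a limit that also applies to the p values of single enzymes and ratios. The 11 ratios of the adjustment include that of Cyp2e1 to the summed FMO genes. Replicates are separate mice, and their spread is the error given. Other steps used Python 3.11.15 (numpy 2.4.6, pandas 2.3.3, matplotlib 3.10.9). The fit and the permutation test were tested on simulated data. Genes named are the 5 enzymes, the 5 genes most correlated with each (of which the text gives all or the first), Fmo6 and Fmo9, all electron partners, and from other lists at most 4, those with the highest mean FPKM. An item of this rule is not reported here. Depth was estimated by searching 15 to 45 M fragments for the value that made most low FPKM whole reads; 55.1% to 64.1% came out whole within 0.08, so no count test was made. Alternatives to the pseudocount, filter, scaling, samples in the fit, moderation, test, block and set of mice were tried. Scaling over the 4134 genes averaging 10 FPKM or more and scaling to the 9 hepatocyte markers were added after seeing the data.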

Additional observations from a re-analysis of the deposited data

How the results depend on the processing

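Scaling moved the results most. For TAA versus control, 3 of the 5 enzymes passed, and 5 did with TPM or hepatocyte-marker scaling. Of all 14094 tested genes, 10166 were higher and 859 lower with TPM, and 10782 and 644 with hepatocyte-marker scaling. When the null was a 2-fold change (treat in limma), 1 (Cyp2e1) passed, and Fmo1 (-0.37) and Fmo5 (0.52) did not. Of all tested genes, 941 then passed as higher and 500 as lower. Log2 fold changes of Fmo1, Fmo2 and Fmo4 were 0.27, 0.44 and 0.30 as deposited, 0.46, 0.63 and 0.49 as TPM, -0.0093, 0.16 and 0.032 with scaling over genes of at least 10 FPKM, and 0.60, 0.77 and 0.63 with hepatocyte-marker scaling, and Fmo1 was at 0.19 with quantile normalization. For recovery versus TAA, 1 passed, and 2 did with no filter on low values (Fmo1 0.19). As deposited 4 passed, with quantile normalization 4, as TPM 5, with scaling over genes of at least 10 FPKM 3 and with hepatocyte-marker scaling 5. Under these 5 scalings, in the same order, 8333, 3238, 10008, 5852 and 11969 of all 14094 tested genes were lower. Those higher were 1141, 3317, 803, 1835 and 431. In this comparison, Fmo1, Fmo2, Fmo4 and Fmo5 were -0.37, -0.80, -0.21 and -0.64 as deposited. They were -0.58, -1.01, -0.41 and -0.85 as TPM, and -0.98, -1.40, -0.80 and -1.25 with hepatocyte-marker scaling. Quantile normalization gave -0.31, 0.38 and -1.12 for Fmo1, Fmo4 and Fmo5, and scaling over genes of at least 10 FPKM gave -0.12, -0.55 and -0.39 for Fmo1, Fmo2 and Fmo5. For recovery versus control, hepatocyte-marker scaling gave 3 calls in place of 0, all lower, as were 13.0% of all tested genes. Its values were -0.68, -0.37, -0.62 and -0.17 for Cyp2e1, Fmo1, Fmo2 and Fmo4, and quantile normalization gave -0.0019 for Fmo4. The log2 difference of the summed FMO level, TAA versus control, was 0.31, and 0.94 as deposited and 1.13 as TPM. The share of the change left was 31.5% for Cyp2e1 on the linear scale, and as deposited -39.8%, -82.9%, 30.3% and 44.6% for Fmo1, Fmo2, Fmo4 and Fmo5. The cause was not tested.

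Leaving out 1 mouse at a time gave, for TAA versus control, 2 to 3 calls, -0.43 to -0.26 for Fmo1, -0.35 to -0.05 for Fmo2, -0.44 to -0.19 (without control mouse 2) for Fmo4 and 0.37 to 0.61 for Fmo5. For recovery versus control it gave 0.29 (without control mouse 2) to 0.53 for Fmo5, -0.53 to -0.29 (without control mouse 1) for Fmo2 and -0.10 to 0.15 for Fmo4, with the sign changed without control mouse 1 or recovery mouse 3. The summed FMO difference was 0.19 to 0.40, and the difference in the share of Fmo4 was -1.04 to -0.39 percentage points. Cyp2e1 stayed at -3.75 to -3.56.

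Mice of the same number did not deviate together (r of deviations -0.07 to 0.12, and 1 of 9 pairings was best with its own number). With the number as a replicate block, 3 enzymes passed for TAA versus control, 1 for recovery versus TAA and 0 for recovery versus control, as without it. With 3 mice a group, an exact permutation test between 2 groups cannot go below p = 0.1. The printed 95% intervals show how large a difference these libraries leave possible under the scaling used here only. They leave out the choice of scaling, and other scalings gave values outside several of them.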

Other observations

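Genes of liver metabolism that differ between the sexes moved in these male mice. Of 8 tested genes that are higher in female liver, 6 rose and 1 fell in TAA mice compared with control mice, and of 10 genes that are higher in male liver, 10 were lower (limma), as under each of the 6 scalings, where 28.2% of all tested genes were higher and 26.3% lower with the scaling used in the report. With quantile normalization the female-higher genes were 5 higher and 2 lower. Cyp3a41a, a female-higher P450, was at 0, 0.0158 and 0 scaled FPKM in control mice, 14.9, 13.8 and 12.1 in TAA mice, and 0.0195, 0.0423 and 0.0198 in recovery mice. Mup20, a male-higher major urinary protein, was at 6922, 6254 and 7141 in control mice, 1833, 1265 and 1343 in TAA mice, and 7987, 6173 and 7724 in recovery mice. The TAA group overlapped with neither other group for either gene. Cyp4a14, a fatty acid hydroxylase that the list counts as female-higher, was the 1 that passed as lower and fell by 5.24 on the log2 scale (limma adjusted p = 1.63e-05). The remaining female-higher gene was also below the control group, at -0.82, but did not pass the test (limma adjusted p = 0.0691). For recovery versus TAA, all 10 male-higher genes were higher, where 24.5% of all tested genes were. Of the 8 female-higher genes, 1 was higher and 6 were lower, where 3668 of all 14094 tested genes were lower.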
